A study of Mus musculus with 15 samples.

Results

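The genes described here are 34 enzymes and transporters of glycolysis, taken by symbol from a count table of 44674 genes without use of their levels. They cover 16 steps, from glucose uptake (3 genes) and hexokinase (2 genes) through the glycolytic enzymes to lactate dehydrogenase (2 genes), lactate export (2 genes) and the pyruvate dehydrogenase kinases (4 genes). All 34 were present in the table, and all 34 passed the filter on low counts that preceded the tests.

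Bulk RNA-seq was made from cultured cells of mice in 15 libraries of 8 conditions, to ask how the endothelial cells (ECs) that grow out of whole bone marrow differ by endomucin (Emcn), by passage and by tissue. P0 Emcn+ BMECs and P0 Emcn− BMECs (bone marrow ECs) were sorted at day 14 from primary whole bone marrow cultures of mice that were 4 to 6 months old. These mice carried Tie2-CreERT2 and Rosa26-tdTomato, had received tamoxifen at 2 to 7 weeks of age, and are labelled WT apart from these transgenes. The sort took tdTomato+ cells without CD45, so that cells were chosen by past activity of the Tek promoter that drives the Cre. Lung Emcn− ECs were sorted in the same way from lung cultures. Passages P1, P2, P3 and P4 were grown from sorted P0 Emcn− BMECs in the same endothelial medium, which holds growth factors and hydrocortisone. BM MSC (mesenchymal stromal cells) were tdTomato+ cells of Osx-Cre;Rosa26-tdTomato mice, in which the Osx promoter drives the Cre, and were grown in a medium for MSC. Each condition had 2 libraries except P4, which had 1, so no spread can be given for P4. The study describes its RNA-seq replicates as independent biological samples, but the labels tie no library to an animal, and p-values measure the spread between these libraries. By the labels, replicate 1 of both P0 populations and lung shared a batch, as did replicate 2 of the same conditions. P4 was in 1 batch with replicate 1 of P1 to P3, and both BM MSC libraries were in another with replicate 2 of P1 to P3. Between P0 or lung on the one side and passaged cells or BM MSC on the other, batch therefore cannot be told apart from condition, since no batch holds both.

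Library totals ran from 9914620 to 39718807 counts, and the shallowest was P0 Emcn− replicate 2. The EC label was checked against 12 endothelial and 10 mesenchymal stromal markers. The endothelial markers summed to 13470 and 11710 CPM (counts scaled by the library total to the usual CPM unit) in P0 Emcn+ BMECs, but to 425 and 171 CPM in P0 Emcn− BMECs, 381 and 997 CPM in lung and 153 to 219 CPM in P1 to P4. The mesenchymal markers summed to 257 and 339 CPM in P0 Emcn+ BMECs, against 23720 and 18270 CPM in P0 Emcn− BMECs, 14340 and 15030 CPM in lung and 5491 to 7953 CPM in P1 to P4. The markers of the Emcn− libraries thus went against their EC label, and these libraries are called by that label here without a claim on cell type. The part that cell composition has in the differences given here was not tested, and in bulk libraries fewer cells of a type cannot be told apart from less RNA per cell.

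Glycolysis splits glucose into pyruvate in the cytosol, with a small yield of ATP, and lactate dehydrogenase then turns pyruvate into lactate, which leaves the cell through monocarboxylate carriers. ECs are known to make most of their ATP this way even in oxygen, and PFKFB3, which makes the sugar phosphate that activates phosphofructokinase, is a known regulator of vessel sprouting. Many steps have several isoenzymes. Pyruvate dehydrogenase kinases act at the exit of the pathway, where they hold back pyruvate dehydrogenase and so the use of pyruvate in the mitochondrion.

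Many glycolytic promoters hold the short DNA motif that the hypoxia-inducible factors read. The 250 bases before each RefSeq transcription start (GRCm38.p6) were searched on both strands for ACGTG and GCGTG, the core of that motif. ACGTG overlaps the E-box, so the same letters may be read by other factors. RefSeq promoters were matched by symbol for 32 of the 34 genes, and 28 of these (87.5%) held at least 1 match, against 41.5% of all 27025 symbols with a promoter and 58.4% of the 12160 symbols with at least 10 counts in at least 2 libraries. Counted by start site, since several genes have more than 1, 74.5% of the 51 starts of these 32 genes and 38.6% of all 32851 starts held a match. The stretches below belong to the 3 genes whose levels varied most between conditions, Pdk4, Eno2 and Slc16a3. They run 5′ to 3′ on the gene's own strand and leave out bases that the GENCODE M21 annotation counts as exon, and capitals mark a match.
Pdk4, chr6:5496310-5496528, minus strand: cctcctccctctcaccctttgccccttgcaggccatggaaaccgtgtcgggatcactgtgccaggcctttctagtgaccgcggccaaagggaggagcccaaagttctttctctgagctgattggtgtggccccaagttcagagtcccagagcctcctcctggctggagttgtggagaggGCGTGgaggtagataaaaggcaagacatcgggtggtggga
Eno2, chr6:124769674-124769862, minus strand: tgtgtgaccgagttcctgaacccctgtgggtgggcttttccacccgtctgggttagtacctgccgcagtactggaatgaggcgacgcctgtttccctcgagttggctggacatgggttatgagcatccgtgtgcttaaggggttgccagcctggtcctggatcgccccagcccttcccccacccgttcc
Slc16a3, chr11:120948817-120949052, plus strand: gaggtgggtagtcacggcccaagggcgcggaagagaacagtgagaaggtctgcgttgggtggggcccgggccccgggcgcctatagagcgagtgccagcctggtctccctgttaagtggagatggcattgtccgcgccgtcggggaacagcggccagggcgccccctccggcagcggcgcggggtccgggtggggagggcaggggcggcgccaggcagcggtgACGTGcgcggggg
The Pdk4 stretch holds 1 match and the Eno2 stretch 0. The whole 250-base window of Slc16a3 holds 2 matches, the other lying in an annotated exon. A match is a description of the letters, and none of these libraries measures binding.

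The 34 genes together took 0.746% and 0.526% of all counts in the P0 Emcn+ libraries and 0.932% and 0.333% in the P0 Emcn− libraries. Their share was 0.380% and 0.375% in lung, 0.454% and 0.460% in BM MSC, and in the passaged pairs it was 0.283% and 0.310% (P1), 0.318% and 0.330% (P2) and 0.373% and 0.366% (P3). The single P4 library had 0.356% (95% Wilson interval 0.354% to 0.358%, which covers counting error only). The P0 Emcn− libraries stood further apart than any other pair, so the P0 Emcn− mean of 0.632% had an SD of 0.424 (n = 2). Per kilobase of merged exons, the most abundant of the 34 genes in every P0 and lung library was Gapdh, the dehydrogenase that makes the first NADH of the pathway. On each gene's own counts, Pdk4 led in 4 of the 7 passaged libraries and Aldoa, the main aldolase, in 3, and Gapdh in 0. This order depends on near-identical copies of Gapdh, described next. With their counts added, Gapdh led in 5 of the 7 and Pdk4 and Aldoa in 1 each. The order also depends on the length used, in P0 and lung libraries as well. Merged exons have 2911 bases for Aldoa, 4133 for Gapdh and 3511 for Pdk4. Their longest transcripts have 1549, 3289 and 3484 bases.

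**Figure D1:**
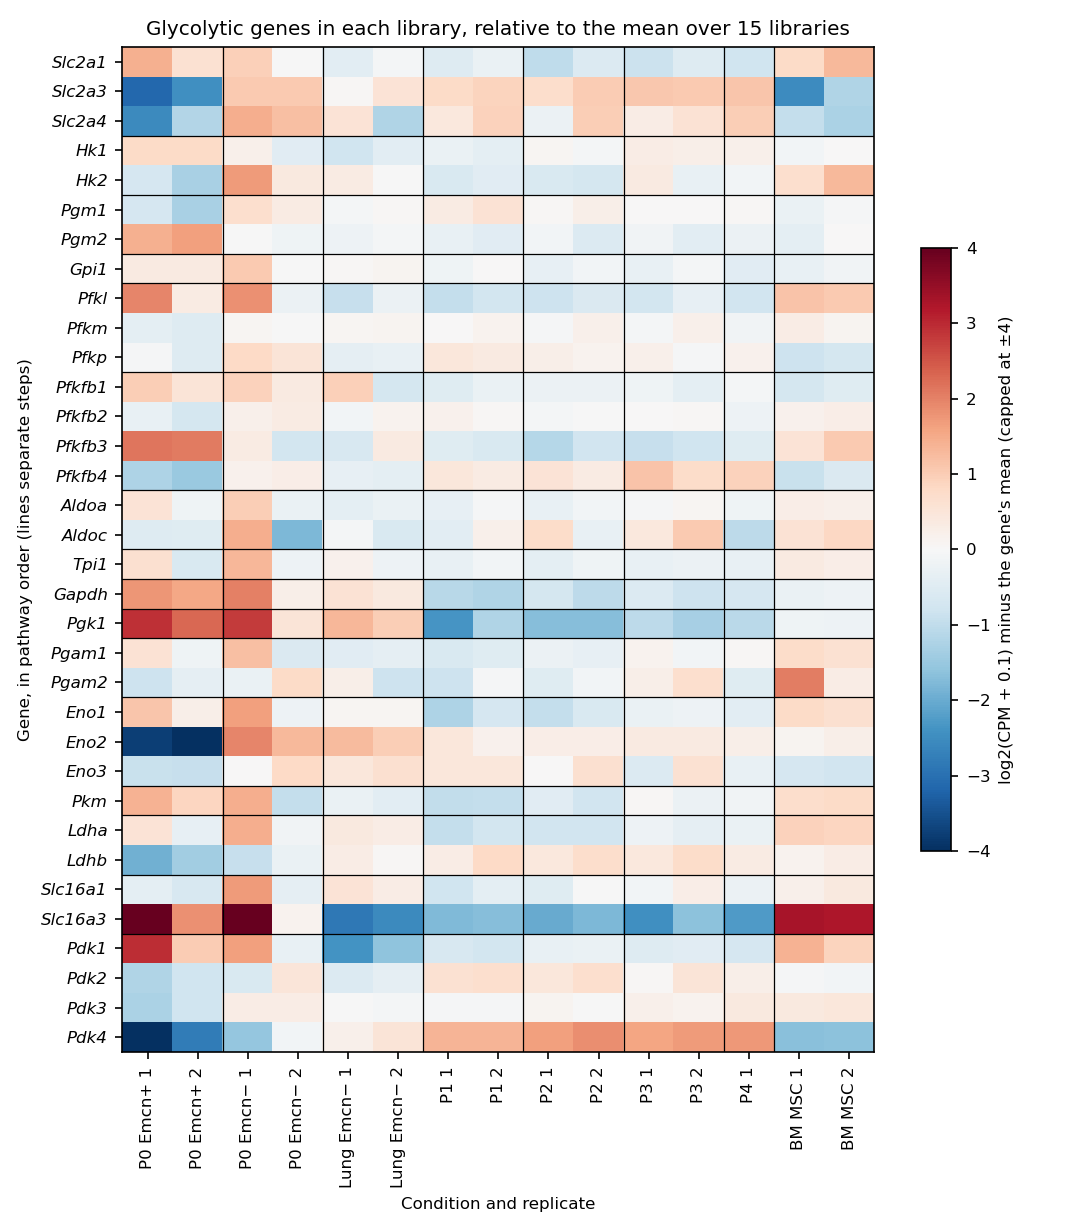
Each of the 34 genes (rows, in pathway order) in each of the 15 libraries (columns), as log2(CPM + 0.1) minus that gene's mean over all libraries, capped at 4 in either direction. P0 Emcn− replicate 1 is above the mean for most genes while replicate 2 is near it, Pdk4 runs from lowest in P0 Emcn+ to highest in P2, and Slc16a3 is high in replicate 1 of both P0 populations and in BM MSC.

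A property of the counts bears on 3 abundant genes and has to be read before their values. Of the 34 genes, 9 have near-identical annotated copies (at least 90% identity over at least 80% of the length), 186 copies in all, of which 163 are copies of Gapdh. In P0 and lung libraries the copies held 6.79% to 11.8% of the counts of Gapdh and its copies together, and in passaged and BM MSC libraries they held 57.1% to 64.2%. For Pgk1, which makes the first ATP of the pathway, the copies Pgk1-rs7 and Gm5537 held 0% to 0.756% against 75.1% to 86.2%. For Eno1, the common enolase, the copies (mainly Eno1b) held 0.0238% to 0.144% against 26.1% to 42.9%. The ranges did not overlap in any of the 3 genes. The split runs with the batches, reads of such copies cannot be assigned with certainty, and the cause was not tested. Copies of Ldhb and Tpi1 split the same way at lower shares, 0% to 0.238% against 6.24% to 9.11% for Ldhb and 0% against 3.20% to 5.00% for Tpi1. For Aldoa, Ldha, Pgam1 and Pkm the copies held at most 2.73%.

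**Figure D2:**
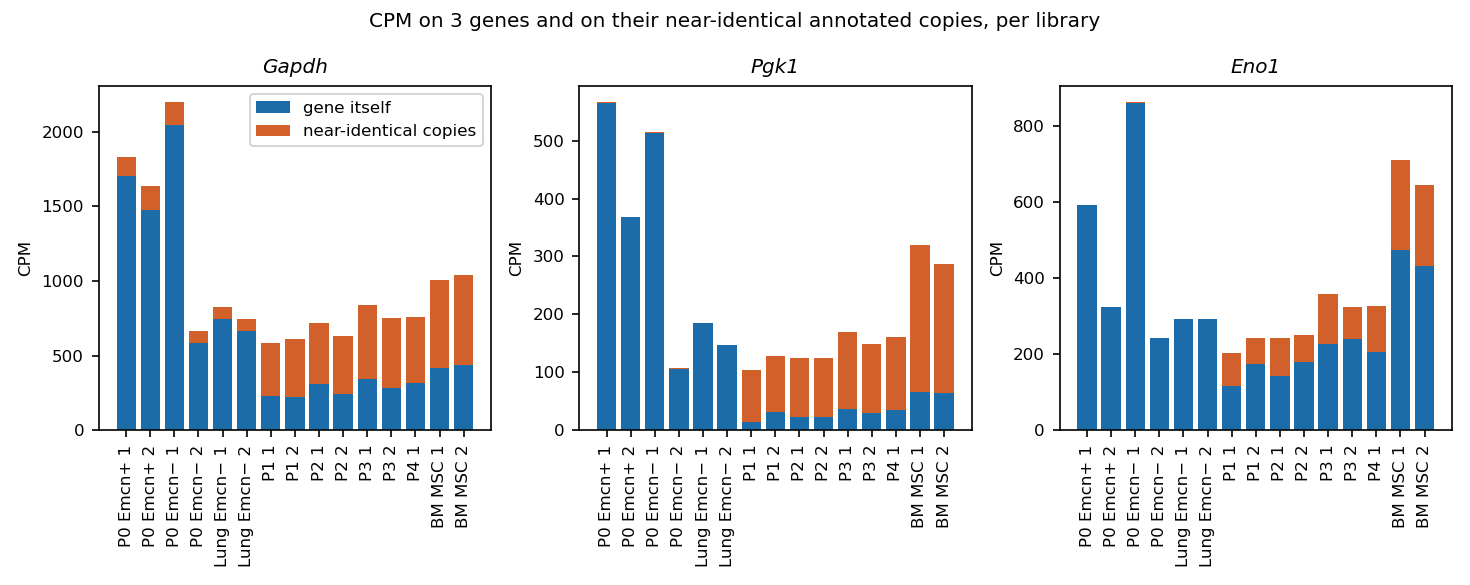
CPM (vertical axis) of Gapdh, Pgk1 and Eno1 in each library (bars), with the part counted on the gene itself in blue and on its near-identical copies in orange. The orange part is small in all 6 P0 and lung libraries and large in all 9 passaged and BM MSC libraries.

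The comparison of P0 Emcn+ with P0 Emcn− BMECs asked which glycolytic genes go with the Emcn sort. Of the 34 genes, 2 were higher in P0 Emcn+ BMECs (7.79% of all 19401 genes tested were called higher) and 6 were lower (11.4% of all genes). Here and below a call means that the gene passed 0.05 after Benjamini-Hochberg adjustment in edgeR's quasi-likelihood test over all genes and changed by more than 1.5 on the log2 scale, and every adjusted p comes from that test. The median log2 fold change of the 34 was −0.63, against −0.06 for all genes tested. The calls fell on genes of steps with several isoenzymes, to which most of the 34 belong. The genes that alone carry their step (Gpi1, Tpi1, Gapdh, Pgk1 and Pkm) were not called. At the shares of all genes given above few calls would be expected among so few genes, and the difference was not tested. Every library stood in a batch with a library of the other population, and 26 of the 32 genes with a ratio in both batches had the same sign in both, 9 up and 17 down. Without P0 Emcn− replicate 1, 6 genes were called higher.

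Uptake was first. Slc2a3 (GLUT3, a high-affinity glucose carrier known from neurons, chromosome 6 from 122727809 to 122801640) had 1.01 and 1.70 CPM in P0 Emcn+ BMECs and 20.0 and 20.1 CPM in P0 Emcn− BMECs. The populations were far apart and the P0 Emcn− pair almost equal, with a log2 fold change of −3.86 (SE 0.41, adjusted p = 6.88e-05). Slc2a4 (GLUT4, the insulin-responsive carrier of muscle and fat) had 0.190 and 0.657 CPM against 4.63 and 3.83 CPM, a log2 fold change of −3.31 (SE 0.74, adjusted p = 0.00597). Its levels were low, and without P0 Emcn+ replicate 1 its adjusted p was 0.0503. Slc2a1 (GLUT1, the general glucose carrier of ECs) had 133 and 76.1 CPM against 96.2 and 48.8 CPM and was not called (log2 fold change 0.56, adjusted p = 0.254). Per kilobase, Slc2a1 made up 99.5% and 98.1% of these carriers in P0 Emcn+ BMECs, against 87.0% and 78.2% in P0 Emcn− BMECs.

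Hexokinase, which traps glucose in the cell, differed by isoenzyme. Hk2, the inducible form, had 13.9 and 8.85 CPM in P0 Emcn+ BMECs and 72.1 and 29.0 CPM in P0 Emcn− BMECs. The populations did not overlap, although the P0 Emcn− pair differed by more than the P0 Emcn+ pair, and the log2 fold change was −2.12 (SE 0.43, adjusted p = 0.00355). Leaving out P0 Emcn− replicate 1 brought it to −1.29, under the fold limit. Hk1, the constitutive form, had 265 and 268 CPM against 179 and 114 CPM, a log2 fold change of 0.89 (adjusted p = 0.00721) that is under the limit of 1.5. Pgm1 and Pgm2 move phosphate groups on sugars, Pgm1 linking glycogen to the pathway. Each symbol has been used for the other gene, so they are taken here as ENSMUSG00000025791 (Pgm1) and ENSMUSG00000029171 (Pgm2, chromosome 5 from 64092950 to 64128351). Pgm2 had 71.4 and 83.0 CPM in P0 Emcn+ BMECs against 26.3 and 23.4 CPM in P0 Emcn− BMECs, with no overlap and a log2 difference of 1.67 (SE 0.21, adjusted p = 0.000198). Pgm1 ran the other way, with 47.3 and 30.8 CPM against 121 and 95.3 CPM, and its log2 fold change was −1.44 (adjusted p = 0.000449), under the limit.

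The control of phosphofructokinase held the larger by fold of the 2 genes called higher. Pfkfb3 (chromosome 2 from 11471433 to 11554077) had 80.1 and 76.9 CPM in P0 Emcn+ BMECs and 22.9 and 10.99 CPM in P0 Emcn− BMECs. All other libraries of the series lay at or under 38.1 CPM. The log2 fold change was 2.23 (SE 0.37, adjusted p = 0.00117). Pfkfb4, its relative, had 4.44 and 3.79 CPM against 12.1 and 12.8 CPM, a log2 fold change of −1.56 (SE 0.21, adjusted p = 0.00033). It lies close to the limit, and without P0 Emcn+ replicate 2 the value was −1.44. Pfkfb1 and Pfkfb2 were not called and had 1.06 to 3.64 CPM and 11.4 to 23.3 CPM over all 15 libraries. Of the phosphofructokinase subunits, which carry the committed step, Pfkl, Pfkm and Pfkp were not called, and Pfkp had the smallest adjusted p, 0.00354 with a log2 fold change of −0.88.

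Enolase showed the largest log2 fold change of the 34 genes in this comparison. Eno2, the enolase known from neurons (chromosome 6 from 124760053 to 124769673), had 1.20 and 0.850 CPM in P0 Emcn+ BMECs and 68.8 and 43.3 CPM in P0 Emcn− BMECs. The lowest of all other libraries had 19.1 CPM, so that the P0 Emcn+ pair stood alone at the bottom. The log2 fold change was −5.72 (SE 0.30, adjusted p = 1.1e-06), or 52.9-fold lower, and within the 2 batches the log2 ratios were −5.80 and −5.64. Eno1 had 592 and 324 CPM against 861 and 242 CPM and was not called (log2 fold change −0.23, adjusted p = 0.770). Eno3, the enolase of muscle, had 1.68 and 1.66 CPM against 3.22 and 5.65 CPM and was not called. Per kilobase Eno2 was 0.230% and 0.294% of the enolases in P0 Emcn+ BMECs and 8.28% and 16.0% in P0 Emcn− BMECs, so Eno1 was the main form in both.

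At the exit of the pathway Pdk4 (chromosome 6 from 5483351 to 5496309), the kinase induced by fasting and glucocorticoids, had 9.54 and 25.8 CPM in P0 Emcn+ BMECs and 61.1 and 166 CPM in P0 Emcn− BMECs. The populations did not overlap, replicate 2 was the higher in each, and the log2 fold change was −2.65 (SE 0.49, adjusted p = 0.00209). Within the batches the log2 ratios were −2.64 and −2.65. Pdk3 had 13.3 and 18.7 CPM against 39.7 and 40.2 CPM, a log2 fold change of −1.29 (adjusted p = 0.000174) that is under the limit. Pdk1, a known target of hypoxia-inducible factors, had 165 and 43.0 CPM against 66.6 and 17.5 CPM. Its within-batch log2 ratios were 1.35 and 1.33, but the replicates of each population were far apart and it was not called (log2 fold change 1.33, adjusted p = 0.142). Ldhb, the lactate dehydrogenase subunit known from heart, had 11.1 and 16.2 CPM against 22.0 and 35.2 CPM, a log2 fold change of −1.03 (adjusted p = 0.012) that is under the limit. The lactate carrier Slc16a1 (MCT1) had 23.0 and 19.6 CPM against 98.1 and 23.9 CPM, and its log2 fold change of −1.495 (adjusted p = 0.0378) fell just short of the limit.

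**Figure D3:**
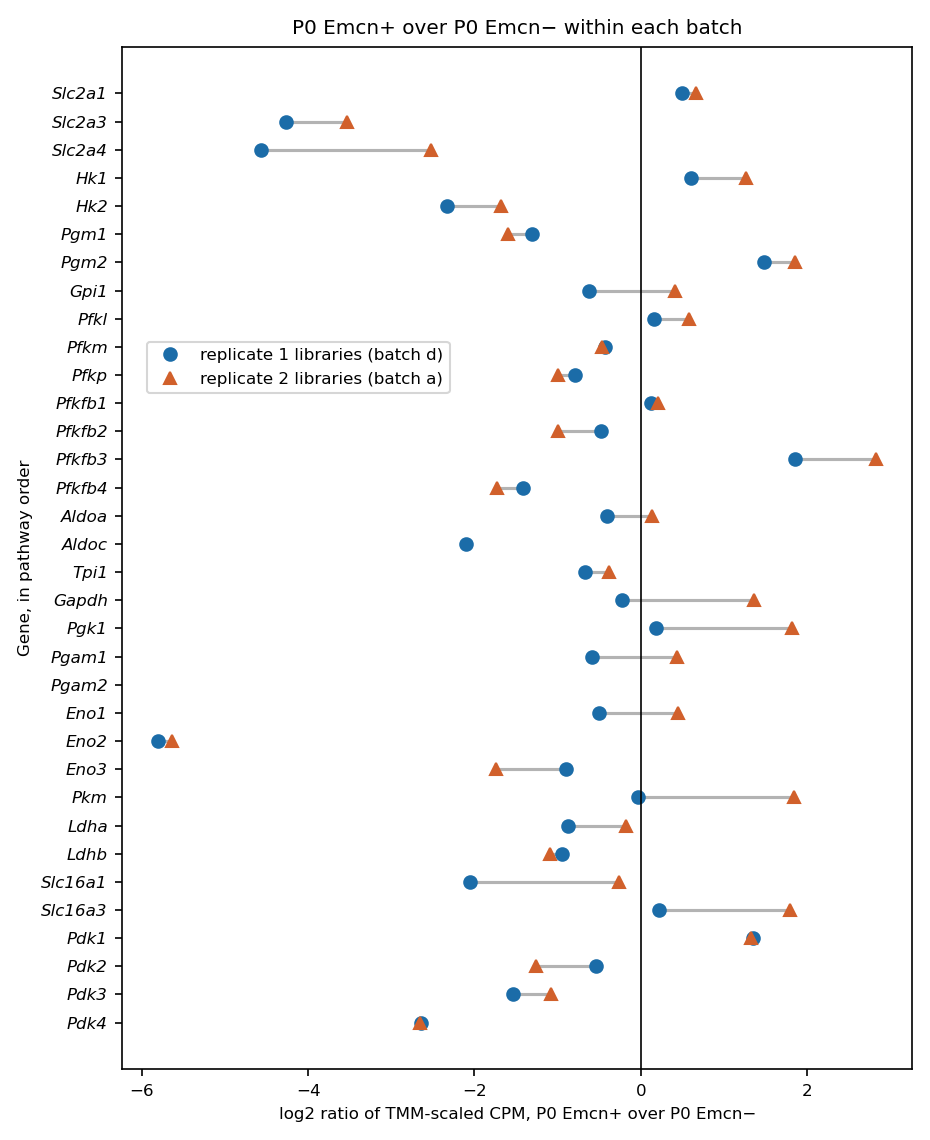
The log2 ratio of TMM-scaled CPM, P0 Emcn+ over P0 Emcn− (horizontal axis), for each gene (vertical axis) in the batch of the replicate 1 libraries (circles) and in the batch of the replicate 2 libraries (triangles), with a grey line between the 2 values. Eno2, Slc2a3, Slc2a4, Pdk4, Hk2 and Pfkfb3 keep their side in both batches, while Gapdh, Pkm, Eno1, Pgam1, Gpi1 and Aldoa change sides.

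Macrophage markers also differed between the sorted populations. The sum of the 12 markers was 661 and 658 CPM in P0 Emcn+ BMECs and 241 and 294 CPM in P0 Emcn− BMECs, and 2 of the 11 tested (Cd68 and Cd14) were called higher. Ptprc (CD45), against which the cells were sorted, had 7.73 and 4.02 CPM against 3.75 and 2.62 CPM, and Cx3cr1 was at 0 in replicate 2 of both. In the same comparison 11 of 12 endothelial markers were called higher in P0 Emcn+ BMECs and 10 of 10 mesenchymal markers lower. The 8 muscle markers summed to 79.8 and 104 CPM against 7.73 and 9.38 CPM, with Ttn called higher and Tnnt3 and Des lower. The part of these cells in the values above was not tested.

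Replicates of P0 differed in the same genes. Of 32 members with enough counts, 25 were higher in P0 Emcn− replicate 1 than in replicate 2, 15 of them by over 1 on the log2 scale, with a median of 0.83. Over 13289 genes that median was −0.01, and 6.50% were over 1 higher. In P0 Emcn+ BMECs 25 of 32 were also higher in replicate 1, with a median of 0.46. Lung replicates, from the same 2 batches, had a median of −0.01 with 16 of 32 higher in replicate 1. The summed CPM of 10 cycling markers was 1303 and 157 in P0 Emcn− BMECs, 827 and 839 in P0 Emcn+ BMECs and 1577 and 287 in lung, and their part in these differences was not tested. Pdk4 was the furthest in the other direction, lower in replicate 1 by 1.43 in P0 Emcn− and by 1.42 in P0 Emcn+ BMECs. At the other end Slc16a3 (MCT4, the carrier of lactate export in glycolytic cells) was 5.12 higher in P0 Emcn− replicate 1 and 3.55 higher in P0 Emcn+ replicate 1. Every comparison with P0 Emcn− BMECs below carries this spread.

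Lung Emcn− ECs were compared with P0 Emcn− BMECs to set the marrow cells against those of another tissue. None of the 34 genes was called higher (2.13% of all genes were; at an unadjusted p under 0.05 there were 2 in edgeR, and DESeq2 called 0), and 2 were called lower (1.70% of all genes). The median log2 fold change of the 34 was −0.51, against 0 for all genes. Within the batches the median log2 ratio was −0.92 for replicate 1 and 0.03 for replicate 2, and 17 of 32 genes had opposite signs, with 3 up and 12 down in both. Without P0 Emcn− replicate 2, 6 genes were called lower and 1 higher. Slc16a3 (chromosome 11 from 120948480 to 120960868) had 0.166 and 0.231 CPM in lung and 69.8 and 2.02 CPM in P0 Emcn− BMECs. The lung libraries held 6 and 5 counts, the groups did not overlap, and the log2 fold change was −7.47 (SE 1.72, adjusted p = 0.0343). Pdk1 (chromosome 2 from 71873224 to 71903858) had 4.03 and 7.01 CPM against 66.6 and 17.5 CPM, a log2 fold change of −2.89 (SE 0.69, adjusted p = 0.0397). Both calls rest on P0 Emcn− replicate 1, since without it the values were −3.29 (adjusted p = 0.240) and −1.60 (adjusted p = 0.208). Leaving out either lung library also ended both calls (adjusted p = 0.105 to 0.231), and a replicate block ended that of Pdk1 (adjusted p = 0.0543). The macrophage markers summed to 25.1 and 23.2 CPM in lung against 241 and 294 CPM in P0 Emcn− BMECs, with 9 of 11 called lower. The endothelial marker Eng was called higher, and the endothelial Tek and the muscle marker Ttn lower. The part of these markers in the 2 calls was not tested.

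Eno2 and Slc2a3 were not called between the tissues. Eno2 had 42.7 and 35.0 CPM in lung, a log2 fold change of −0.46 against P0 Emcn− BMECs (adjusted p = 0.337), and Slc2a3 had 10.1 and 14.1 CPM, a log2 fold change of −0.67. In both genes the lung libraries nevertheless lay below the P0 Emcn− pair without overlap. Pdk4 had 204 and 254 CPM in lung, above both P0 Emcn− libraries, and was not called.

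Against P0 Emcn+ BMECs, 5 of the 34 genes were called higher in lung (12.6% of all genes) and 5 lower (8.48% of all genes). The median log2 fold change of the 34 was 0.08, against 0.06 for all genes. Within the batches 13 of 33 genes were up in both, 14 down in both and 5 opposite, which does not cover all 33. The comparison shares its libraries with those above, so its values are not independent of them. Higher were Eno2 (log2 fold change 5.26, adjusted p = 1.5e-06), Pdk4 (3.73, adjusted p = 0.000323), Slc2a3 (3.19, adjusted p = 0.000184), Ldhb (1.84, adjusted p = 0.000425) and Eno3 (1.55, adjusted p = 0.013). Ldhb (chromosome 6 from 142490249 to 142507957) had 51.7 and 43.4 CPM in lung against 11.1 and 16.2 CPM, with no overlap. Eno3 had 4.47 and 5.12 CPM against 1.68 and 1.66 CPM, and its call was lost without either P0 Emcn+ library or without lung replicate 2. Lower were Slc16a3 (−7.75, SE 1.73, adjusted p = 0.00572), Pdk1 (−4.22, adjusted p = 0.0013), Pfkfb3 (−2.13, adjusted p = 0.00137), Pfkl (−1.88, adjusted p = 0.0369) and Pgm2 (−1.64, adjusted p = 0.000206). Slc16a3 had 79.2 and 6.84 CPM in P0 Emcn+ BMECs, more than 1 order of size above either lung library. Pfkl, the liver-type subunit, had 22.6 and 35.9 CPM in lung against 165 and 53.5 CPM, and its call was lost in the replicate block (log2 fold change −1.501, adjusted p = 0.0572), without P0 Emcn+ replicate 1 (−0.86) and without either lung library. Slc16a3 had an adjusted p of 0.0566 without lung replicate 1. In the same comparison 11 of 11 macrophage and 9 of 12 endothelial markers were called lower and 10 of 10 mesenchymal markers higher. Of 6 muscle markers Tnnt3 and Des were called higher and Ttn lower, and the part of all these markers was not tested.

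**Figure D4:**
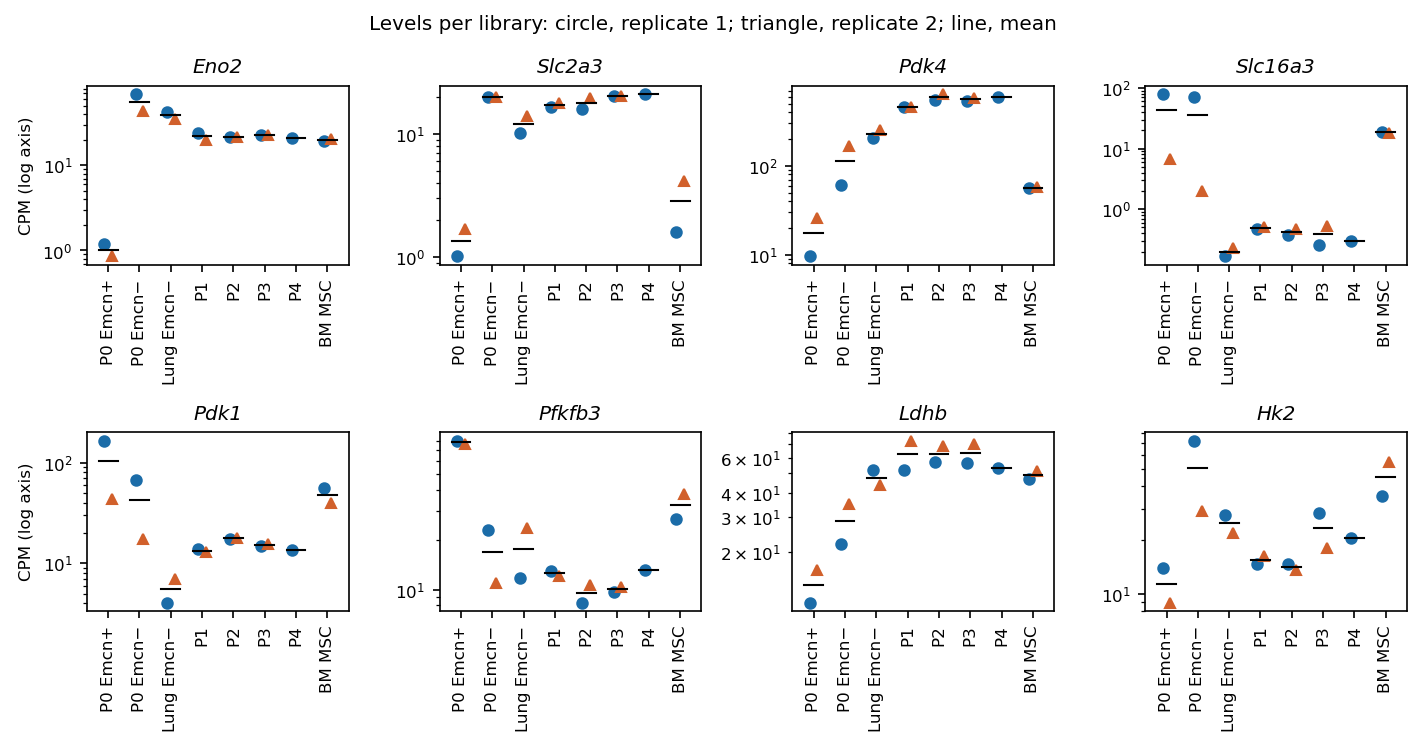
CPM on a log axis (vertical) of 8 genes by condition (horizontal), with circles for replicate 1, triangles for replicate 2 and a line for the mean. P0 Emcn+ is lowest for Eno2 and Pdk4 and highest for Pfkfb3, Pdk4 is highest at P1 to P4, and Slc16a3 and Pdk1 are low in lung and P1 to P4 and higher again in BM MSC.

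The next comparison set the first passage, P1, against P0 Emcn− BMECs. The conditions share no batch, so passage and batch cannot be told apart here. Of the 34 genes 1 was called higher at P1 (5.77% of all genes) and 6 lower (3.07% of all genes), with a median log2 fold change of −0.62 against 0.02 for all genes. A fit to these 4 libraries alone called 0 in either direction, with adjusted p from 0.0757 (Pdk4) to 0.148 (Eno1) for the 7 genes. Pdk4 was the gene called higher, with 461 and 456 CPM at P1 against 61.1 and 166 CPM at P0 (log2 fold change 2.18, SE 0.48, adjusted p = 0.014). Both P1 libraries stood above both P0 libraries and next to each other. Without P0 Emcn− replicate 1 the value was 1.62 with an adjusted p of 0.0681, and without P1 replicate 1 it was 2.15 with an adjusted p of 0.064. At P1 Pdk4 alone took 16.3% and 14.7% of the counts on the 34 genes, against 0.655% and 4.98% in P0 Emcn− BMECs.

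Without P0 Emcn− replicate 2 there were 11 genes lower and 2 higher, and without replicate 1 there were 1 and 0. Lower at P1 were Hk2, Gapdh, Pgk1, Eno1, Ldha and Slc16a3. Slc16a3 had 0.476 and 0.502 CPM (16 and 14 counts) against 69.8 and 2.02 CPM, a log2 fold change of −6.05 (SE 1.54, adjusted p = 0.0257). Hk2 had 14.6 and 16.1 CPM against 72.1 and 29.0 CPM (−1.57, adjusted p = 0.031), and Ldha, the main lactate dehydrogenase subunit, had 129 and 150.4 CPM against 687 and 228 CPM (−1.56, adjusted p = 0.0348). The P0 pair in these genes spanned a wider range than its distance to P1. Without P0 Emcn− replicate 1 the values were −1.88 for Slc16a3, −0.76 for Hk2 and −0.56 for Ldha, and none was called. Leaving out either P1 library ended these 3 calls as well (adjusted p = 0.12 to 0.176). In the replicate block Hk2 (−1.44) and Ldha (−1.39) fell under the fold limit, which left 4 genes lower.

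Gapdh, Pgk1 and Eno1 are the called genes whose copies took more counts at P1. Gapdh itself had 231 and 219.9 CPM against 2044 and 587 CPM (−2.39, adjusted p = 0.00745), Pgk1 14.4 and 32.1 CPM against 513 and 106 CPM (−3.59, adjusted p = 0.00555) and Eno1 116 and 173 CPM against 861 and 242 CPM (−1.78, adjusted p = 0.0346). With the copies added to each gene, Gapdh had 583 and 614 CPM against 2196 and 666 CPM, for which edgeR gave a log2 fold change of −1.10 (adjusted p = 0.0902). Pgk1 then had 104 and 129 CPM against 515 and 107 CPM (−1.27, adjusted p = 0.126), and Eno1 203 and 243 CPM against 862 and 242 CPM (−1.16, adjusted p = 0.114). None of the 3 was called on those sums, so 3 of the 34 genes remained lower (3.06% of all 19327 genes then tested) and 1 higher (5.75% of all genes). The calls on the genes' own counts were lost for all 3 without P1 replicate 1 (adjusted p = 0.0591 to 0.2), for Gapdh and Eno1 without P1 replicate 2, and for the same pair without P0 Emcn− replicate 1 (−1.23 and −0.59). Markers moved here too, since the mesenchymal sum was 7451 and 7953 CPM at P1 against 23720 and 18270 CPM, with 3 of 10 markers called lower, and 2 of 10 cycling markers were called lower. The endothelial marker Cdh5, the macrophage marker C1qa and the muscle marker Ttn were called lower as well, and the macrophage sum was 79.7 and 254 CPM at P1, so that the P1 pair differed. Their part in these values was not tested.

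Later passages were compared at P3 against P1, which share both batches. None of the 34 genes was called higher (0.0773% of all genes) or lower (0.144% of all genes). At an unadjusted p under 0.05 there were 2 higher and 0 lower in edgeR, and DESeq2 called 0 in either direction. The median log2 fold change of the 34 was 0.22, against −0.01 for all genes, and 17 of 33 genes with a ratio in both batches were up in both while 7 were down in both. The macrophage markers summed to 18.7 and 15.3 CPM at P3 against 79.7 and 254 CPM at P1, with 4 of 11 called lower, and their part in the values of the 34 genes was not tested. Pdk4 had 552 and 642 CPM at P2, 537 and 587 CPM at P3 and 593 CPM at P4. Slc2a3 kept between 15.9 and 21.01 CPM from P1 to P4, and Eno2 between 20.0 and 24.3 CPM. Slc16a3 stayed at or under 0.518 CPM and Pdk1 between 12.9 and 17.7 CPM.

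BM MSC were compared with P0 Emcn− BMECs and with the passaged Emcn− BMECs (the mean of P1, P2 and P3), to set the tdTomato+ cells of the Osx line against those of the Tie2 line. Against P0 Emcn− BMECs, none of the 34 genes was called higher (11.3% of all genes) and 4 lower (7.45% of all genes), and the median log2 fold change was −0.13 against 0.01 for all genes. At an unadjusted p under 0.05 there were 2 higher in edgeR, while DESeq2 called 0, and without P0 Emcn− replicate 1 edgeR called 3 higher. Slc2a3 had 1.60 and 4.14 CPM in BM MSC against 20.0 and 20.1 CPM, a log2 fold change of −2.72 (SE 0.38, adjusted p = 0.000631). Slc2a4 had 0.786 and 0.609 CPM against 4.63 and 3.83 CPM, a log2 fold change of −2.50 (SE 0.69, adjusted p = 0.0191), and its call was lost without either BM MSC library or P0 Emcn− replicate 1 (adjusted p = 0.0662 to 0.0972). Both carriers were lower in both BM MSC libraries than in either P0 Emcn− library. Gapdh (−1.53, adjusted p = 0.023) and Pgk1 (−2.17, adjusted p = 0.0199) were the other 2, and both calls were lost without P0 Emcn− replicate 1 (−0.37 and −0.62) or without either BM MSC library. The replicate block also ended the call of Gapdh (−1.22). With the copies added, Gapdh had 1006 and 1037 CPM against 2196 and 666 CPM and Pgk1 320 and 287 CPM against 515 and 107 CPM. Neither was then called (−0.40, adjusted p = 0.475, and 0.06, adjusted p = 0.951), which left 2 genes lower (7.46% of all genes) and 0 higher (11.3% of all genes). Eno2 had 19.1 and 20.6 CPM in BM MSC, a log2 fold change of −1.41 (adjusted p = 0.00167) that is under the limit. Of the macrophage markers 10 of 11 were called lower in BM MSC. Of the other markers, Acta1 and Actn2 (2 of 6 muscle markers) and the mesenchymal Lum were called higher, and the endothelial Flt1 and Tek, the mesenchymal Pdgfra and the cycling Aurkb lower. The part of these markers was not tested.

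Against the passaged Emcn− BMECs, 5 of the 34 genes were called higher in BM MSC (8.42% of all genes) and 3 lower (5.81% of all genes), with a median log2 fold change of 0.27 against 0.01 for all genes. Slc16a3 had 19.0 and 18.3 CPM in BM MSC, while the 6 passaged libraries lay between 0.254 and 0.518 CPM. The log2 fold change was 5.35 (SE 0.98, adjusted p = 0.00264), or 40.8-fold higher. Pdk1 had 55.9 and 39.8 CPM against 12.9 to 17.7 CPM (1.56, adjusted p = 0.0325), Pfkl 93.7 and 87.8 CPM against 21.8 to 34.2 CPM (1.69, adjusted p = 0.0183) and Slc2a1 84.0 and 122 CPM against 24.7 to 41.2 CPM (1.57, adjusted p = 0.00157). Pfkfb3 had 26.9 and 38.1 CPM against 8.29 to 13.0 CPM (1.52, adjusted p = 0.00237). In these 5 genes neither BM MSC library overlapped with any library of P1 to P3. Even so, without BM MSC replicate 1 or 2 the calls of Pfkl and Pdk1 were lost, and without BM MSC replicate 2 those of Slc2a1 (1.31) and Pfkfb3 (1.28). The call of Pfkfb3 also fell under the fold limit without P1 replicate 2 (1.49) or P2 replicate 1 (1.47). The call of Pdk1 was lost without any single one of the 6 passaged libraries too (adjusted p = 0.0596 to 0.066).

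Lower in BM MSC were Pdk4, Slc2a3 and Slc2a4. Pdk4 had 55.8 and 57.6 CPM against 456 to 642 CPM, with a log2 fold change of −3.33 (SE 0.46, adjusted p = 0.000598). Slc2a3 had 1.60 and 4.14 CPM against 15.9 to 20.4 CPM (−2.78, adjusted p = 0.000338), and Slc2a4 0.786 and 0.609 CPM against 1.34 to 3.31 CPM (−1.86, adjusted p = 0.0397). No library of BM MSC reached the passaged range. The call of Slc2a4 was lost without any single library of the comparison except P2 replicate 1 (adjusted p = 0.0547 to 0.212). The mesenchymal markers summed to 22310 and 12560 CPM in BM MSC against 5491 to 7953 CPM in the passaged libraries, with 3 of 10 called higher and 1 lower, and 3 of 6 muscle markers were higher. Of the other markers, 7 of 12 endothelial genes were called higher in BM MSC and 2 lower, and 6 of 11 macrophage genes lower, and their part was not tested. Both BM MSC libraries are of the batch of replicate 2. A further fit left out replicate 1 of P1 to P3, so that the libraries compared came from that batch. All other libraries stayed in the fit, and P1, P2 and P3 had 1 library each. The calls of the 5 genes higher in BM MSC did not hold there. Their log2 fold changes kept their sign, Slc16a3 with 5.16, Pdk1 with 1.58, Pfkl with 1.56, Pfkfb3 with 1.49 and Slc2a1 with 1.43. The replicate block left 3 genes higher, with Slc2a1 at 1.43 and Pfkfb3 at 1.49, just under the limit.

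Per kilobase, the shares of isoenzymes within a step differed between conditions in a way that a sum over the step does not show. Of the 4 pyruvate dehydrogenase kinases, Pdk4 made up 8.31% and 29.5% in P0 Emcn+ BMECs, 37.2% and 61.6% in P0 Emcn− BMECs, 75.7% and 79.0% in lung and 82.7% to 86.7% in P1 to P4, but 33.3% and 35.3% in BM MSC. Pdk1 was the leading kinase in P0 Emcn+ replicate 1 (64.8%), but not in replicate 2 (22.2%). Within lactate dehydrogenase Ldhb held 6.01% and 14.7% in P0 Emcn+, 6.33% and 24.5% in P0 Emcn−, 25.0% and 22.8% in lung and 45.9% and 50.6% at P1. At P3 it held 35.2% and 43.1% and in BM MSC 17.3% and 19.2%. P0 Emcn− replicate 1 lay with P0 Emcn+ for this pair of subunits and replicate 2 with lung.

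Pfkfb3 held 73.1% and 77.2% of its family in P0 Emcn+ BMECs, against 32.4% and 18.5% in P0 Emcn− BMECs, 13.9% to 21.6% in P1 to P4 and 44.9% and 51.0% in BM MSC. Pfkfb4 was the largest of the family per kilobase in the passaged libraries, with 37.3% to 53.3%. At P1 Pfkfb2 was close to it, with 36.4% and 36.2%. Without division by length Pfkfb2 was the larger at P1 and P2. At P1 it took 0.742% and 0.627% of the counts on the 34 genes, and Pfkfb4 0.523% and 0.434%. Among the hexokinases Hk2 held 6.98% and 4.50% in P0 Emcn+ BMECs and 36.5% and 26.6% in P0 Emcn− BMECs. Pgm2 held 63.0% and 75.3% of the phosphoglucomutases in P0 Emcn+ BMECs and 15.9% to 29.1% in the other 13 libraries, so the 2 P0 Emcn+ libraries were apart from all others. Of the lactate carriers Slc16a3 held 74.1% and 22.5% in P0 Emcn+ BMECs, 37.2% and 6.56% in P0 Emcn− BMECs, 0.307% and 0.509% in lung, 0.745% to 2.20% in P1 to P4 and 31.1% and 27.7% in BM MSC. The shares are given as a description, with no test.

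**Figure D5:**
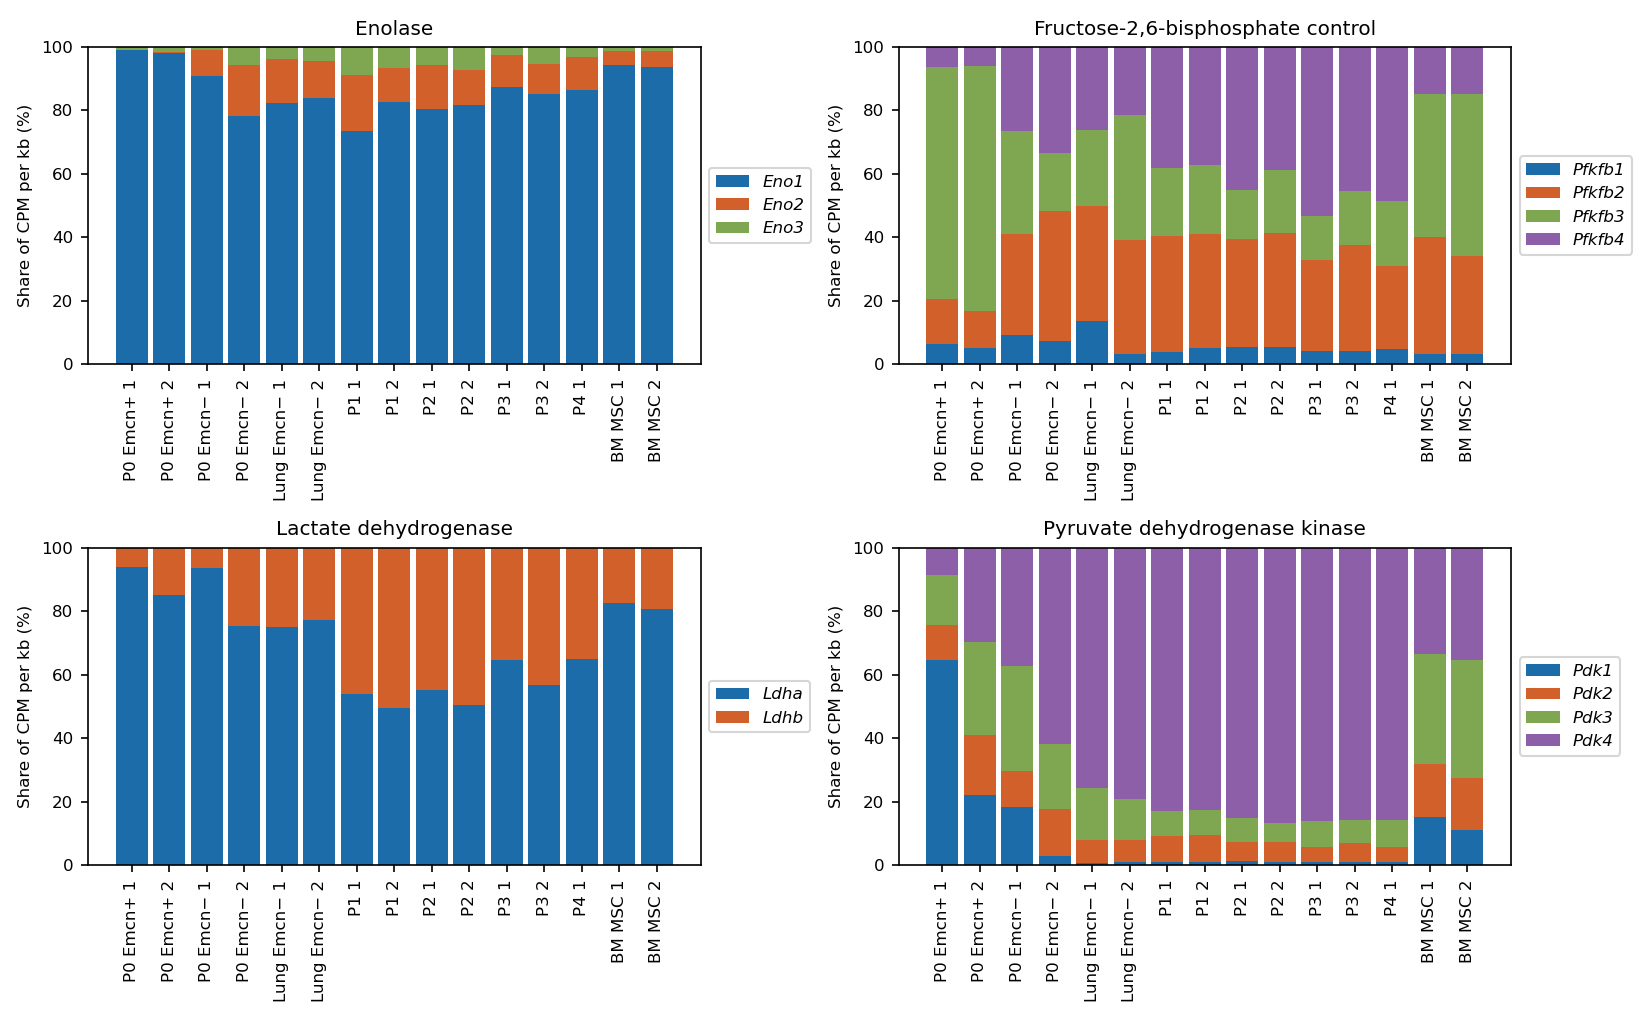
Share of each isoenzyme in the CPM per kilobase of its step (vertical axis, percent) in each library (bars), for enolase, the family that controls phosphofructokinase, lactate dehydrogenase and pyruvate dehydrogenase kinase. Eno2 is almost missing and Pfkfb3 dominates in P0 Emcn+, and Pdk4 takes most of its step in lung and P1 to P4.

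The remaining genes were called in no comparison, and their levels are given by range over the 15 libraries. The abundant ones were Pkm, the last ATP-making step (273 to 1464 CPM), Aldoa (361 to 939 CPM), Gpi1, the isomerase of the second step (at most 559 CPM), Pgam1, the common mutase (137 to 483 CPM), and Tpi1, which interconverts the triose phosphates (107 to 408 CPM). In Pkm, Aldoa, Gpi1, Pgam1 and Tpi1 the highest library was P0 Emcn− replicate 1. Pfkm, the muscle-type subunit, varied least, from 25.0 to 44.0 CPM, and the platelet-type Pfkp ran from 45.7 to 140.4 CPM. Hk1 lay between 90.3 and 268 CPM, Pgm1 between 30.8 and 121 CPM, Slc16a1 between 17.6 and 98.1 CPM, Pdk2 between 11.3 and 42.1 CPM and Pdk3 between 13.3 and 44.5 CPM. Aldoc, the aldolase of brain, had 0.202 to 2.79 CPM. Pgam2, the mutase of muscle, had at most 23 counts in a library (BM MSC replicate 1) and 0 counts in P0 Emcn+ replicate 1, lung replicate 2 and P1 replicate 1, which allows up to 0.0951, 0.138 and 0.0892 CPM. Pfkp, Pgm1 and Pfkfb2 overlap other annotated genes (Pitrm1, Itgb3bp and Yod1), with which reads may be shared.

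Other gene lists around the pathway were read against the same shares of all genes, 7.79% higher and 11.4% lower in P0 Emcn+ against P0 Emcn− BMECs. In P0 Emcn+ against P0 Emcn− BMECs, 0 of 7 pentose phosphate genes and 0 of 16 genes of the TCA cycle were called in either direction. Among the genes of glycogen metabolism Pygl, the liver glycogen phosphorylase, was lower, with 3.07 and 2.71 CPM against 84.0 and 81.0 CPM (log2 fold change −4.80, adjusted p = 1.1e-06). Of 10 genes for the entry of pyruvate into mitochondrial metabolism 1 was lower, Pdp1, the phosphatase that opposes the Pdk kinases. Pdp1 had 17.1 and 24.5 CPM against 69.9 and 122 CPM (−2.17, adjusted p = 0.00283). Pdp1 and Pdk4 were thus lower together, and at P1 both were higher than at P0, Pdp1 with 361 and 376 CPM (2.10, adjusted p = 0.00903). Emb, a chaperone of lactate carriers, had 9.38 and 7.50 CPM against 519 and 407 CPM (−5.74, adjusted p = 2.62e-05). The list of 13 tested isoenzymes and carriers that holds Emb had 1 more lower gene, the glucose carrier Slc2a12, and of 4 tested gluconeogenesis genes 1 was lower, Pcx, which makes oxaloacetate from pyruvate. Of 22 genes of hypoxia sensing and response 2 were higher (Car9 and Ndrg1) and 3 lower (Car12, P4ha2 and Vegfa). The list thus had calls in both directions, with a median log2 fold change of −0.08.

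In lung against P0 Emcn+ BMECs 5 of the 22 hypoxia genes were lower (Epas1, Egln3, Car9, Ankrd37 and Ndrg1; 8.48% of all genes) and 0 higher (12.6% of all genes). Egln3, the oxygen-sensing hydroxylase that hypoxia induces, had 3.56 and 4.38 CPM in lung against 37.8 and 13.2 CPM (−2.66, adjusted p = 0.0184). Ankrd37, another gene that hypoxia induces, had 0.193 and 0.369 CPM against 10.8 and 2.94 CPM (−4.62, adjusted p = 0.0128). In BM MSC against passaged Emcn− BMECs 3 of the 22 were higher (Egln3, Ankrd37 and Higd1a, 8.42% of all genes) and 1 lower (Ddit4, 5.81% of all genes). In lung against P0 Emcn− BMECs 0 of the 22 were called (2.13% of all genes higher and 1.70% lower). At P1 against P0 Emcn− BMECs 1 was lower (Higd1a; 3.07% of all genes). In BM MSC against P0 Emcn− BMECs 1 was higher (Ndrg1; 11.3% of all genes) and 2 lower (Epas1 and Ddit4; 7.45% of all genes). The 22 genes summed to 2500 and 2415 CPM in P0 Emcn− replicates 1 and 2 and to 2673 and 2611 CPM in P0 Emcn+ BMECs. Their sum was 1386 and 1869 CPM in lung, 1616 to 1802 CPM in P1 to P4 and 2238 and 2175 CPM in BM MSC.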

How the data were processed

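RNA was made into KAPA RNA HyperPrep libraries from samples with an RNA integrity number above 7. Per the methods, the authors ran the nf-core RNA-seq pipeline with STAR and Salmon on GRCm38 with Ensembl annotation and summarised transcripts to genes with tximport, and the deposited table holds whole-number counts per gene for 15 libraries. Use of strand in counting is not given in the sources used here. The methods name 3 batches, the first sequenced on another instrument than the rest. The labels name 4 batches, and the labels were used. The part of the instrument in the values was not tested. The 8 entries without a symbol were kept out of named results.

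The members, lists and tests were chosen with earlier results of these data known. Every gene that was called is given with its libraries and the rest by range. CPM were scaled by library totals. Genes were kept by edgeR's filter (minimum count 10, total 15), which left 19401. Each condition had 1 coefficient in edgeR 4.0.16 (R 4.3.3, limma 3.58.1), with TMM scaling, the quasi-likelihood test and Benjamini-Hochberg adjustment. Calls needed adjusted p below 0.05 together with a log2 fold change beyond 1.5 in either direction. The residual degrees of freedom were 7. With 3 counts as the floor, libraries could show 0.0755 to 0.303 CPM, and intervals and floors cover counting error only. On simulated counts with 200 changed genes the fit recovered 177 to 185 at a log2 change of 3. Shares used CPM per kilobase of merged exons (GENCODE M21).

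Same-numbered libraries share a labelled batch among the P0 and lung libraries and among those of P1 to P3. Correlations of their deviations from the group means were 0.133 to 0.345 and 0.534 to 0.728. Alternatives were DESeq2 1.42.0, other size factors, library totals, other filters, a replicate block, fits to the groups compared, no fold limit, other lengths and leaving out each library. Sums over near-identical copies and a fit without replicate 1 of P1 to P3 were added after seeing the data.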

Additional observations from a re-analysis of the deposited data

How the results depend on the processing

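Of 39 gene calls 15 held under every alternative, among them those of Eno2, Slc2a3, Pgm2, Pfkfb3 and Pdk4 between the P0 populations. Over 547 gene values under an alternative 451 kept their call and 1 reversed, Pgk1 in BM MSC against P0 Emcn−, at 0.055 with copies summed. The 451 include 39 values without the fold limit, which keep their call by construction. Numbers of members called, in the order higher and lower, are given where they moved by over 1.5 times, and DESeq2 moved none by that much. Without the fold limit, P0 Emcn+ against P0 Emcn− had 15 lower, lung against P0 Emcn+ 10 higher, P1 against P0 Emcn− 2 higher, BM MSC against P0 Emcn− 1 and 7, and BM MSC against passaged 8 and 6. With only the groups compared, lung against P0 Emcn− had 0 lower, P1 against P0 Emcn− 0 and 0, and BM MSC against P0 Emcn− 2 lower. With copies summed, P1 against P0 Emcn− had 3 lower and BM MSC against P0 Emcn− 2 lower. With replicate 1 of P1 to P3 left out, the higher calls of BM MSC against passaged did not hold. The replicate block, in which same-numbered libraries of a labelled batch are paired, left 1 lower in lung against P0 Emcn−, 3 higher in BM MSC against passaged, 4 lower at P1, 4 lower in lung against P0 Emcn+ and 3 lower in BM MSC against P0 Emcn−, and ended 7 of the 39 calls.

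Leaving out each library in turn gave 2 to 6 higher and 6 to 9 lower for P0 Emcn+ against P0 Emcn−, 0 to 1 higher and 0 to 6 lower for lung against P0 Emcn−, 4 to 5 higher and 4 to 6 lower for lung against P0 Emcn+, 0 to 2 higher and 0 to 11 lower for P1 against P0 Emcn−, 0 to 3 higher and 1 to 5 lower for BM MSC against P0 Emcn−, and 2 to 4 higher and 2 to 3 lower for BM MSC against passaged. P3 against P1 stayed at 0.

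With the longest transcript as length, Hk2 held 20.1% in P0 Emcn−, Ldhb 38.1% at P1 and Pdk4 78.7% at P1. With no division by length, Slc2a3 held 22.1% and Hk2 24.5% in P0 Emcn−, Pfkfb3 79.4% in P0 Emcn+, Ldhb 30.7% and Pdk4 84.2% at P1. The summed share of counts with TMM-scaled totals was 0.365% in lung, 0.346% at P2, 0.390% at P3, 0.385% at P4 and 0.450% in BM MSC. With copies summed it was 0.385% in lung, 0.352% at P1, 0.384% at P2, 0.443% at P3, 0.426% at P4 and 0.564% in BM MSC. Except where fewer libraries or genes entered by construction, the cause was not tested. Genes under about 1 CPM, such as Pgam2, Slc2a4 in P0 Emcn+ and Slc16a3 in lung, rest on few counts.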
